A study of Mus musculus with 28 samples.

Results

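The broad acetylated intervals are the stretches of at least 1500 bp in a list of genome intervals enriched for histone H3 acetylated at lysine 27 (H3K27ac) in mouse cranial neural crest cells. They were chosen by width alone, from the rows on chromosomes 1 to 19 and X. They number 1178 of 125509 intervals on those chromosomes (0.939%), and the whole list, with its scaffolds, holds 125826. The list rests on 4 libraries of wild-type (WT) embryos at day E10.5, 1 for each sorted subpopulation labelled FNP, Mx, Md and PA2, whose reads were merged before intervals were called. It belongs to a series of 28 libraries in 25 groups that also covers Ezh2 and Hoxa2 genotypes, other days, other antibodies and wild-type Md input libraries. The other 24 libraries, inputs included, were not analysed here. The labels do not give the number of embryos behind each library or the label used for sorting, and no interval is tied to 1 of the 4 subpopulations.

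Acetylation of lysine 27 of histone H3 is laid down by the acetyltransferases p300 and CBP at promoters and enhancers that are in use, and it cannot coexist on 1 histone tail with the Polycomb mark H3K27me3. Around an active promoter the mark usually lies on the nucleosomes that flank the nucleosome-depleted start site. Wide stretches of active promoter marks have been described at genes of cell identity, and cranial neural crest cells build the bone, cartilage and connective tissue of the face.

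The sequences just upstream of chosen starts, with a broad or a narrower interval, are printed as examples and do not measure how the groups differ. The 250 bases before a start listed by RefSeq for GRCm38.p6 are given 5′ to 3′ on the gene's strand, with each CpG dinucleotide in capitals. Gli3, a transcription factor of Hedgehog signalling, and Yap1, the coactivator of the Hippo pathway, are shown as CpG-rich starts that lay wholly under intervals of 2366 and 2185 bp. Their windows are chr13:15463473-15463722 on the plus strand, with 34 CpG, and chr9:8004597-8004846 on the minus strand, with 44 CpG.
Gli3: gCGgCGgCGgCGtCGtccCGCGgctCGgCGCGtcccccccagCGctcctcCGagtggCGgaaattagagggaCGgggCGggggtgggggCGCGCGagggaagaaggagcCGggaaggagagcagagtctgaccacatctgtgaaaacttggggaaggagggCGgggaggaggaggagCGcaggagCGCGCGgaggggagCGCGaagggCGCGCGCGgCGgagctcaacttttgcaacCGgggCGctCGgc
Yap1: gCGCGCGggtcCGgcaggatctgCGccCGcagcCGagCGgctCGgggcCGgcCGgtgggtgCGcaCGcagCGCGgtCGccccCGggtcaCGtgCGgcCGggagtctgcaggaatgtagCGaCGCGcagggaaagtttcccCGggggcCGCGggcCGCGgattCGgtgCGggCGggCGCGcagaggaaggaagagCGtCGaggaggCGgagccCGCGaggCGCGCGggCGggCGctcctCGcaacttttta
Col3a1, which encodes the fibrillar collagen of soft connective tissue, is shown as a start with no CpG in the window under an interval of 1715 bp (chr1:45311288-45311537, plus strand).
Col3a1: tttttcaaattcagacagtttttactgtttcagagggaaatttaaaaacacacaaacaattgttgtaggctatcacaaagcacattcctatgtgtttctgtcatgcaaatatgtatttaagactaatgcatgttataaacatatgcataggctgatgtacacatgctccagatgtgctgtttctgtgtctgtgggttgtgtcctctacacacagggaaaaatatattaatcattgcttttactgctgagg
Twist1, a basic helix-loop-helix regulator of crest mesenchyme, is shown because its interval of 1533 bp did not touch the printed window (chr12:33957421-33957670, plus strand, 18 CpG) and began at 33957860, downstream of the listed start at 33957671.
Twist1: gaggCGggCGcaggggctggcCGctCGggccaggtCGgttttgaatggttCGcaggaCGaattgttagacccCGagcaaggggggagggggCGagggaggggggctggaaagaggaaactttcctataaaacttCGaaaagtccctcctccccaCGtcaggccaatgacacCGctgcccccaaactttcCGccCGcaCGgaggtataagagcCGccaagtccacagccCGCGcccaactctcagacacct
Rplp0, a ribosomal protein gene, is shown as the contrast of a CpG-rich start with a narrower interval of 1008 bp and a high score of 8445 (chr5:115559217-115559466, plus strand, 19 CpG). That interval, too, began downstream of the listed start at 115559467, at 115559493.
Rplp0: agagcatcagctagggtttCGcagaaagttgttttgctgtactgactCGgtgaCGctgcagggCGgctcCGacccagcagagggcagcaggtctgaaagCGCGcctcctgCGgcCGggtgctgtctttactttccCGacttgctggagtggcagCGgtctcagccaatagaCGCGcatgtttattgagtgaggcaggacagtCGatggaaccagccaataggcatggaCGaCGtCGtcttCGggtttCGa

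The broad intervals covered 2036 kb, which is 4.2% of all bases in the list. The median broad interval was 1673 bp wide, with quartiles of 1569 and 1824 bp, and the median of the 124331 narrower ones was 269 bp. Of the broad intervals 414 (35.1%) were under 1600 bp, 428 (36.3%) from 1600 to under 1800 bp, 122 (10.4%) reached 2000 bp and 6 reached 2500 bp. The width distribution had no gap at the limit, with 573 intervals from 1400 to 1499 bp and 414 from 1500 to under 1600 bp. The median score of these neighbouring bins was 3088 and 2999, so neither count nor score broke at the limit. Just inside it, at 1500 bp, lay intervals in Jade1, Ttc28 and Hvcn1 with scores of 2918, 2197 and 2119. Just outside, at 1499 bp, lay those at Sp7 (score 3015), 20.2 kb from Zfp64 (1086) and at Cdk14 (7131).

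The score is the authors' deposited value for each interval, by MACS2's convention a whole number that grows with the significance of the read pile-up, so a higher score means more reads over background. Width and score come from the same calling, and their relation is given as a description with no test. The median score of the broad intervals was 3031 (quartiles 1289 and 5425, range 162 to 64025). For intervals under 300, of 300 to 499, of 500 to 999 and of 1000 to 1499 bp it was 82, 149, 474 and 2339. The quartiles of the next class, 732 and 4741, overlapped those of the broad intervals.

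**Figure D1:**
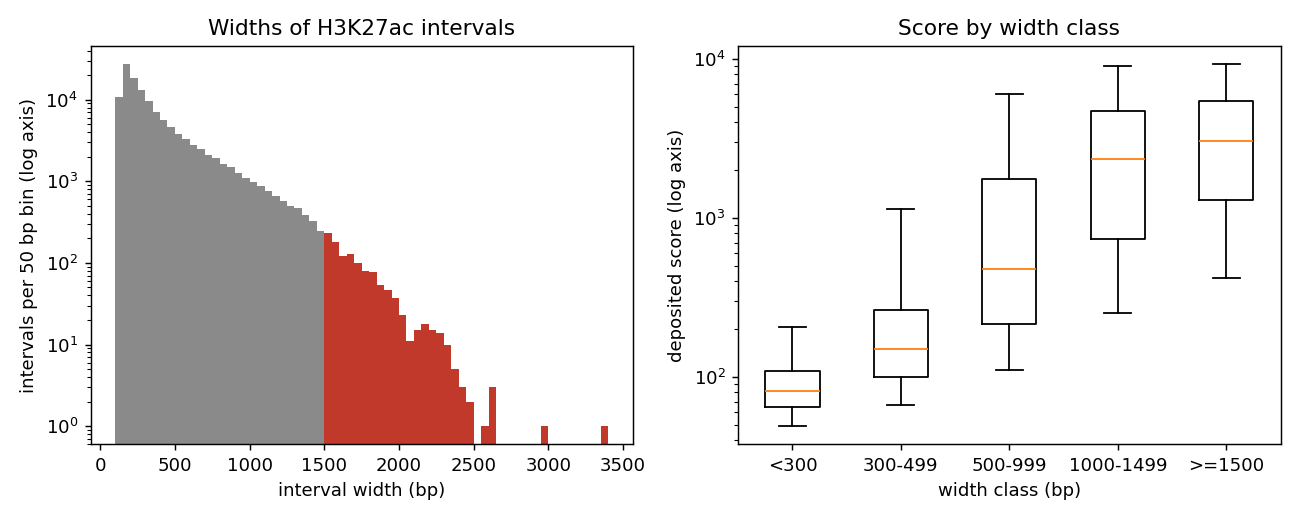
Left, the number of H3K27ac intervals in bins of 50 bp of width (log axis), with the intervals of 1500 bp or more in red. Right, boxes of the deposited score (log axis) by width class, with the median, quartiles and whiskers from the 5th to the 95th percentile; the boxes of the widest 2 classes overlap, with medians of 2339 and 3031.

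Most of the highest scores lay outside the broad intervals, but broad intervals were more frequent there than their 0.939% of the list. Of the broad intervals, 880 (74.7%) were in the top decile of all scores (1299 or more), where they made up 7.01%. Among the 1178 highest scores of the list, 119 (10.1%) belonged to broad intervals. Scores over 10000 were reached by 3.57% of broad intervals and 3.42% of those of 1000 to 1499 bp. At the other extreme, 88 broad intervals (7.47%) scored under 500, although 65.1% of the whole list scored lower than the lowest of them.

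Place was read from the RefSeq gene table of GRCm38.p6, which gives each gene's first and last base but no strand, so an interval counted as at a gene end when any base of it came within 1 kb of the gene's first or last base. Of the broad intervals 768 (65.2%, Wilson 95% interval 62.4 to 67.9%) lay at an end of a protein-coding gene. The share was 16% for all intervals under 1500 bp and 16.5% for the list as a whole. By class it was 6.32%, 15.1%, 36.6% and 59.6% (58.3 to 60.9% for the last), so it was larger in each wider class. These intervals cover counting error only, and neighbouring intervals are not independent. A further 77 broad intervals (6.54%) lay at an end of another kind of gene and 78 (6.62%) within 1 kb of a RefSeq start inside a gene. Inside a protein-coding gene lay 132 (11.2%), inside another gene 27 (2.29%) and between genes 96 (8.15%).

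A wide interval reaches a window more easily than a narrow one, so place was also counted by midpoint. What made the last step between classes by overlap was not tested. When only the interval's midpoint had to lie within 1 kb of a protein-coding gene end, the share was 55.3% for broad intervals and 55.7% for those of 1000 to 1499 bp. The steps between the narrower classes were still there, with 6.01%, 14.3% and 35.0%. By the midpoint, broad intervals therefore lay at gene ends as often as the next class, and the difference between them by overlap was not seen.

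**Figure D2:**
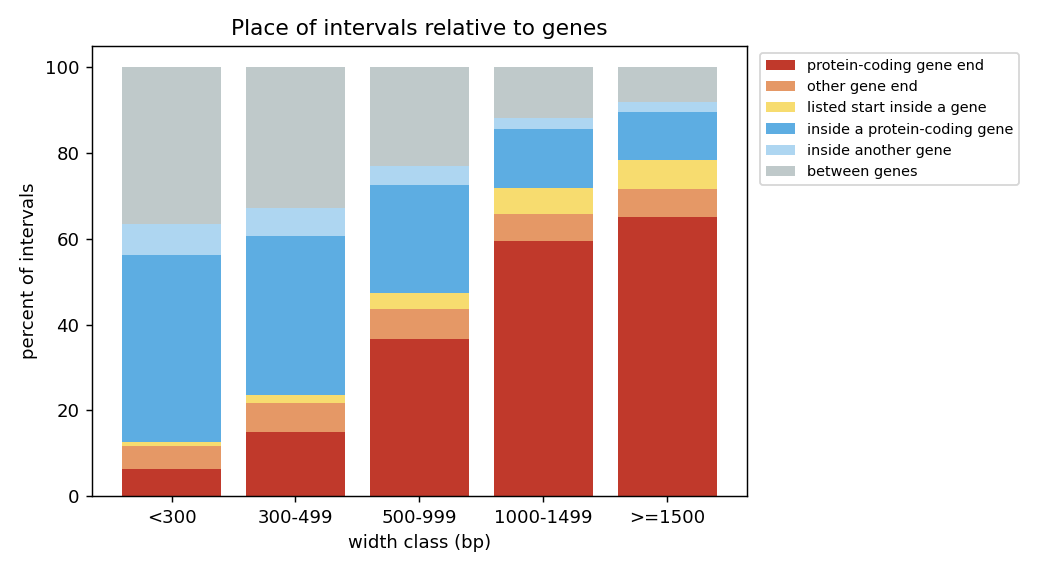
Stacked bars of the percent of intervals in 6 kinds of place (y axis) for 5 width classes (x axis), by overlap with windows of 1 kb around gene ends. The red share, at ends of protein-coding genes, is 6.32% under 300 bp and 65.2% at 1500 bp or more, while the grey share between genes is 8.15% in the widest class.

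Score and place went together within the broad intervals. The median score was 4169.5 at protein-coding gene ends, 3322 at RefSeq starts inside genes and 2106 at ends of other genes. It was 864.5 inside protein-coding genes, 834 inside other genes and 759.5 between genes. Width hardly varied by place, with medians from 1643 to 1725 bp. Of broad intervals with scores under 500, 15.9% lay at a protein-coding gene end, against 87.1% of those of 8000 or more. Intervals of 1000 to 1499 bp gave 12.1% and 87.1% in the same bands. From 1000 to 1999, broad intervals were at gene ends in 49.5% of cases (Wilson 42.6 to 56.4%), against 57.1% (53.8 to 60.4%) in the next class and 62.4% (60.5 to 64.2%) at 500 to 999 bp. In that band and from 2000 to 3999 the Wilson interval of the broad class lay below that of intervals of 500 to 999 bp. In no band did it lie above that of either class, so at a given score broad intervals were not at gene ends more often beyond counting error.

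**Figure D3:**
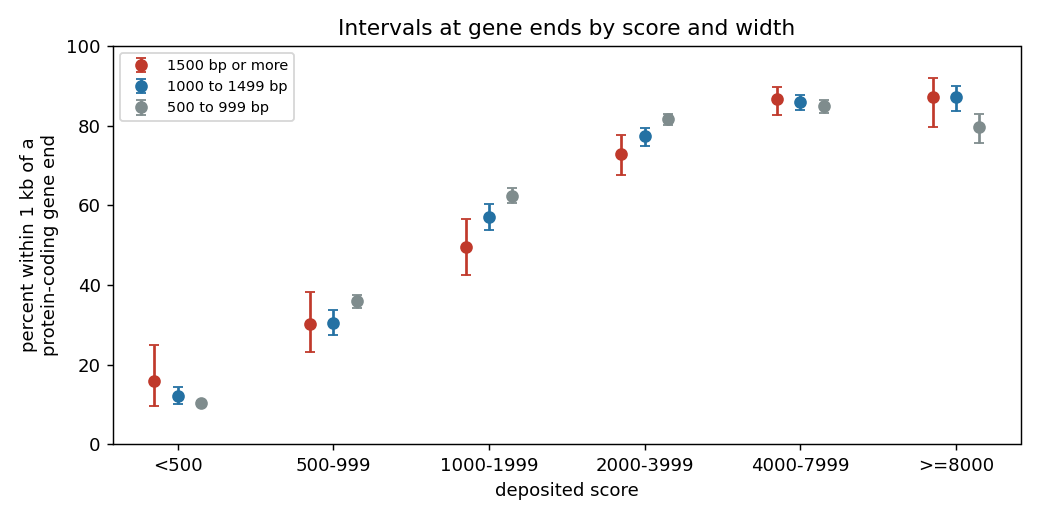
Percent of intervals within 1 kb of a protein-coding gene end (y axis) in 6 bands of the deposited score (x axis), for broad intervals (red), 1000 to 1499 bp (blue) and 500 to 999 bp (grey); bars are Wilson 95% intervals. The share is larger in each higher band up to 4000 in all 3 classes, and the broad class goes from 15.9% to 87.1%.

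RefSeq starts with a strand were listed for 17274 of the 21631 protein-coding genes (79.9%), and 609 broad intervals (51.7%) covered at least 1 of them, against 41.7% of the intervals of 1000 to 1499 bp. Of those within 1 kb of such a start, 87.0% covered it, against 78.8% in the next class and 49.7% at 500 to 999 bp. Where exactly 1 start was covered, the 398 broad intervals reached a median of 638.5 bp upstream and 1050.5 bp downstream. The next class reached 402 and 792 bp, and intervals of 500 to 999 bp 63 and 614 bp. Broad intervals extended further downstream than upstream in 76.1% of cases, less often than the next class (82.9%) and than those of 500 to 999 bp (87.3%). Against the next class the broad intervals were longer on both sides. Because the classes were cut by width, wider ones cover a nearby start more readily and reach further by construction. What else enters these differences was not tested.

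**Figure D4:**
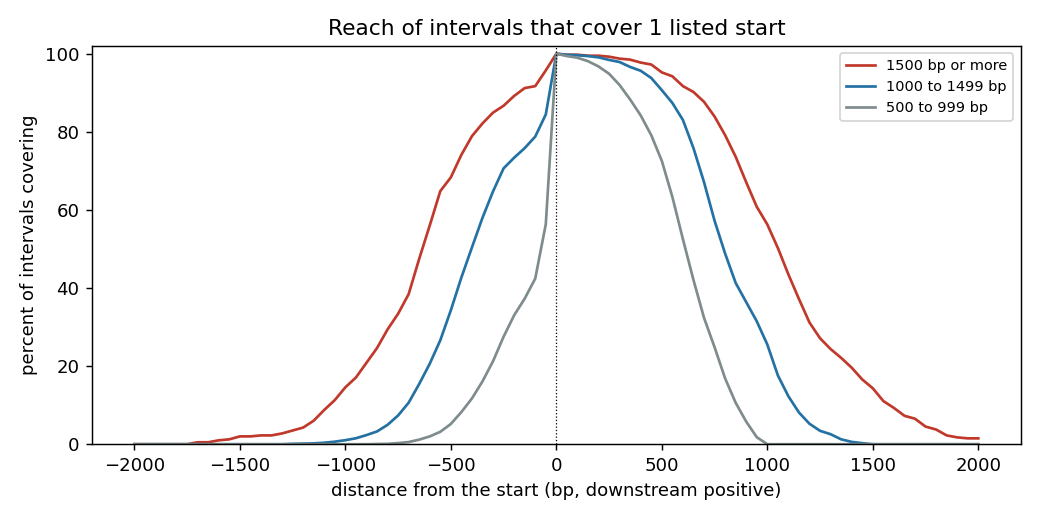
Percent of intervals that cover each distance from a RefSeq start (x axis in bp, downstream positive), for intervals that cover exactly 1 start, in 3 width classes. The red curve of the broad intervals is wider on both sides, with a median reach of 638.5 bp upstream and 1050.5 bp downstream. The classes were cut by width, so a wider curve for a wider class follows by construction.

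Broad intervals also held more starts. Of the 609 that covered a start, 211 (34.6%) covered more than 1, against 23.7% in the next class. Starts of different genes on opposite strands, an arrangement that includes bidirectional promoters, were both covered by 77 (12.6%), against 7.12% and 1.43% in the classes below. Examples are Arpc4 and Tada3, and Emc1 and Mrto4, described with the highest scores. Of all broad intervals, 159 (13.5%) lay at ends of 2 or more protein-coding genes, against 9.69% of the next class. Longer intervals cover more positions by construction, and how much of these differences that leaves was not tested.

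The median number of other intervals within 10 kb of a broad interval was 1, as in the next class, against 2 in each class under 1000 bp. Within 50 kb it was 8, the same as over all narrower intervals. Another interval within 500 bp was present for 26.8%, against 39.3% of the 1000 to 1499 bp class, 57.8% at 500 to 999 bp, 48.5% at 300 to 499 bp and 32.4% under 300 bp. The median gap to the nearest interval was 6397 bp. The number of wide stretches depended on whether near intervals were joined, and why they were called apart was not tested. With intervals no more than 500 bp apart joined, 6890 reached 1500 bp, and 316 of the 1178 (26.8%) became part of a longer stretch. Of the joined stretches 49.3% lay at a protein-coding gene end, against 12% of those that stayed under 1500 bp.

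An end of 931 of 21631 protein-coding genes (4.3%) carried a broad interval. Any interval was carried by 14230 (65.8%), so 6.54% of marked genes had a broad one. With starts alone, 795 of 17274 genes (4.6%) had a broad interval within 1 kb, and 1179 (5.45%) had 1 at an end, at a start or inside. Of 746 carriers with a listed start, 685 had the interval at the start only, 33 at the far end only and 28 at both. The carriers were the longer genes, with a median of 27.6 kb, against 22.6 kb for genes with narrower intervals only and 8.41 kb for genes with none. The median of the widest interval at each marked gene was 840 bp.

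The widest interval of all, 3351 bp with a score of 2424, lay on chromosome 17 (39843017 to 39846367). It was at Rn18s-rs5, an annotated pseudogene named for ribosomal RNA, 104 kb from the nearest protein-coding gene. Ribosomal RNA sequence is repeated many times in the genome, and no control library is named for the caller. In this list, reads piled up there cannot be told apart from acetylation, and the input libraries of the series were not analysed. The next was 2975 bp with a score of 1604 inside Ptch1, the Hedgehog receptor gene (chromosome 13, 63563210 to 63566184). It lay within 1 kb of a RefSeq start and 7.28 kb from the annotated gene end. Fbln1, which encodes the matrix protein fibulin-1, had 2635 bp and a score of 5866. An interval of 2621 bp was shared by Phyhd1 and Lrrc8a, a subunit of the volume-regulated anion channel, with a score of 717.

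Further genes among the 15 widest had the following values. Smad3, which carries TGF-beta signals to the nucleus, had 2498 bp and a score of 3134. Trps1, a GATA-type repressor of skeletal development, had 2414 bp and 2389. The homeobox gene Irx3 had 2387 bp with a score of 1624, and Gli3 had 2366 bp with 4860. Rtkn had 2424 bp and 5029. At low scores stood an interval of 2565 bp at the non-coding gene Gm46741 in Stam2 (183). Another of 2460 bp (259) lay at E130114P18Rik, within 1 kb of a start of Nfia. Away from protein-coding gene ends lay those 9.76 kb from Igf2r, inside a non-coding gene (2416 bp, 532), and 139 kb from Tmc3 (2387 bp, 838). The scores of these 15 ran from 183 to 9231, so great width went with both weak and strong calls.

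Also among the 15, an interval of 2627 bp on chromosome 10 (122984163 to 122986789) covered Mirlet7i, a gene of the let-7 family that restrains growth and timing genes, at a score of 9231. It was 1 of 10 miRNA hairpins under broad intervals, of 1005 with a position and 120 under any interval. That is 8.49 hairpins per 1000 broad intervals against 6.07 in the next class, but 4.91 per Mb covered against 5.09. Per base, broad intervals therefore held no more hairpins than the next class. The hairpin of miR-199a lay under an interval of 1813 bp with a score of 2135 at the non-coding gene Dnm3os inside Dnm3, a locus known for miRNAs of mesenchyme. The mature sequences from RefSeq are printed with the seed, bases 2 to 8, in capitals, because the seed sets which transcripts a miRNA pairs with. The 15 mature sequences under broad intervals had 15 distinct seeds.
mmu-let-7i-5p: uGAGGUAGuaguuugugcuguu
mmu-miR-199a-5p: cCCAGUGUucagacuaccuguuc
mmu-miR-199a-3p: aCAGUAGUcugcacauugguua

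The highest score, 64025, belonged to an interval of 1591 bp at the assembled start of chromosome 9 (3000008 to 3001598), 334 kb from Alkbh8, with 9 other intervals within 10 kb. With duplicates kept and no control named, piled-up reads there cannot be told apart from acetylation either. It was the only broad one of the 14 intervals in the list with scores over 50000. The other 9 of the 10 highest were all at protein-coding gene ends. Atp6v0c, a subunit of the proton pump of lysosomes, had 21652 over 1524 bp. Zfp335 followed with 17150, then Arpc4 and Tada3, an actin nucleation and a chromatin adaptor gene, with 15209 for 1 shared interval. Plcg1, a phospholipase below growth factor receptors, had 15088 and Kmt5b, a histone H4 methyltransferase, 14876. Srsf6, a splicing factor, had 14331, Tnpo1 (with Gm52051), a nuclear import receptor, 14315, Zdhhc17, a palmitoyltransferase, 13781 and Emc1 with Mrto4 13650. Of these 9, only Zdhhc17, at 2211 bp, was wider than 1800 bp.

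None of the 10 lowest scores was at a protein-coding gene end. They ran from 162, between genes and 9.85 kb from Poli, to 233 inside Sox13. Inside genes lay those of Lmx1a (184), Arid5b (219), Antxr1 (219), Samd4 (222) and Sox5 (223). Sox5, Sox13 and Lmx1a encode transcription factors and Antxr1 a matrix receptor. The others were 96.6 kb from Tomm20 (167), at Gm46741 in Stam2 (183) and at the non-coding gene Gm33951, 36.7 kb from Lcor (186). These widths, from 1509 to 2565 bp, overlapped those of the 10 highest scores, from 1503 to 2211 bp.

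Away from every annotated gene end lay 333 broad intervals (28.3%), of which 78 were at RefSeq starts inside genes. The 10 widest included 4 at such starts: in Ptch1, in Sema4c, a guidance semaphorin (2322 bp, score 5945), in Prrx1, a homeobox regulator of facial mesenchyme (2301 bp, 2523), and in Plekho1 (2228 bp, 6556). Inside genes and away from starts were those in Nr6a1, an orphan nuclear receptor (2357 bp, 2497), and Smarca2, an ATPase of the BAF remodelling complex (2217 bp, 3168). Between genes were those 139 kb from Tmc3, 16.2 kb from Rfx7 (2310 bp, 3184) and 46.0 kb from Rbx1 (2268 bp, 2076). The 10th, near Igf2r, was inside a non-coding gene.

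Few genes carried several. Loxl3, a collagen cross-linking enzyme gene, was the only one with 2 at its ends, of 1957 bp (score 3622, shared with Aup1 and Htra2) and 1866 bp (992, shared with Dok1). Inside their bodies, 25 genes held 2 or more and 4 held 3. Sox5, a partner of Sox9 in cartilage, held 1935, 1536 and 1517 bp with scores of 870, 223 and 1509, the last at its gene end. Dnm3 held 1994, 1813 and 1553 bp with 673, 2135 and 451. Maml3, a Notch coactivator, held 2166, 1986 and 1646 bp with 1542, 2862 and 639, and Mecom, a zinc-finger regulator, 1808, 1587 and 1515 bp with 1637, 2886 and 660. All 4 are long genes, from 418 kb in Maml3 to 954 kb in Sox5. The median distance between successive broad intervals was 1097 kb, and it was not set against the spacing expected from their number. The closest pairs lay at Id2, an inhibitor of E-proteins (1704 and 1611 bp, scores 396 and 1544, 3704 bp apart), and at Skida1 (1559 and 1954 bp, scores 1123 and 3056, 4621 bp apart).

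The labelled cell type was first checked with intervals of any width. They lay at an end of 25 of 26 neural crest and facial mesenchyme regulators, 5 of 13 blood, 6 of 12 neuronal, 8 of 15 epithelial, 7 of 10 myogenic and 12 of 13 endothelial markers and 19 of 20 housekeeping genes, with 65.8% of all genes as background. An interval of any width thus did not set the crest list apart from the endothelial or housekeeping lists. The lists were then read for broad intervals against the 4.3% of all protein-coding genes with a broad interval at an end. Craniofacial signalling genes had 10 of 26 and frontonasal regulators 4 of 8. Neural crest and facial mesenchyme regulators had 6 of 26. The median widest interval of their marked genes was 1471, 1363.5 and 1113 bp, against 840 bp over all marked genes. Other lists lay on either side of the crest value. E-protein and Id genes had 1220 bp, cytosolic ribosomal protein genes 1012 bp, housekeeping genes 935 bp and endothelial markers 366 bp. The counts and medians are given without a test, since the lists and the intervals were chosen with results of these data known.

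The signalling genes with broad intervals came from the Hedgehog, TGF-beta, BMP and FGF pathways. Of the Hedgehog pathway, the transcription factor genes Gli3 and Gli2 had 2366 bp (score 4860) and 1942 bp (1920), the receptor Ptch1 1562 bp (882) at its gene end and the transducer Smo 1524 bp (8907). Of the TGF-beta and BMP pathways, Smad3 had 2498 bp and the inhibitory Smad7 and Smad6 had 2176 bp (2792) and 1724 bp (1749), while the ligand gene Bmp7 had 1569 bp (733). Of the FGF pathway, the receptor Fgfr1 had 1650 bp (2689) and the feedback inhibitor Spry2 2182 bp (1580). Axin2, a Wnt feedback gene, had 1583 bp (1992) at a start inside the gene, and Notch2 had 1752 bp (832) in its body. The ligand genes Shh and Ihh were among the 5 genes of the list, Axin2 included, with no interval of any width at an end. Fgfr2 and Spry1, with 1471 and 1428 bp, stayed just below the limit.

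Among frontonasal regulators, the homeobox genes Six2 and Alx4 had 1537 bp (score 1038) and 1513 bp (2683), and the paired-box gene Pax7 1621 bp (339). The nuclear receptor gene Nr2f2 had 2030 bp (2470) in its body. The lists for the first arch had counts near the background, with 1 of 11 mandibular and distal-arch regulators, Dlx6 (1705 bp, 1068), and 0 of 8 maxillary and proximal first-arch regulators. The gap is narrow in base pairs: Dlx5 had 1494 bp, Msx1 1424 bp and Dlx2 1326 bp. Meis2 had 2004 bp (610) in its body. The list merges the subpopulations, so these counts do not compare them.

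Among the crest and mesenchyme regulators, the forkhead genes Foxd1 and Foxp1 had 1878 bp (score 1219) and 1619 bp (1614). Twist2, Zeb1 and Twist1, regulators of mesenchymal state, had nearly equal widths of 1535, 1534 and 1533 bp, with scores of 1702, 3850 and 3067. Counting starts and gene bodies, 11 of 26 (42.3%) had a broad interval, against 5.45% of all genes. The added ones were Prrx1 (2301 bp), Nfia (2460 bp), Nfix (1694 bp, 1494), Prrx2 (1588 bp, 1134) and Ednra, the endothelin receptor gene (1512 bp, 341). Long genes hold more intervals by their length, and this count was not matched for it.

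**Figure D5:**
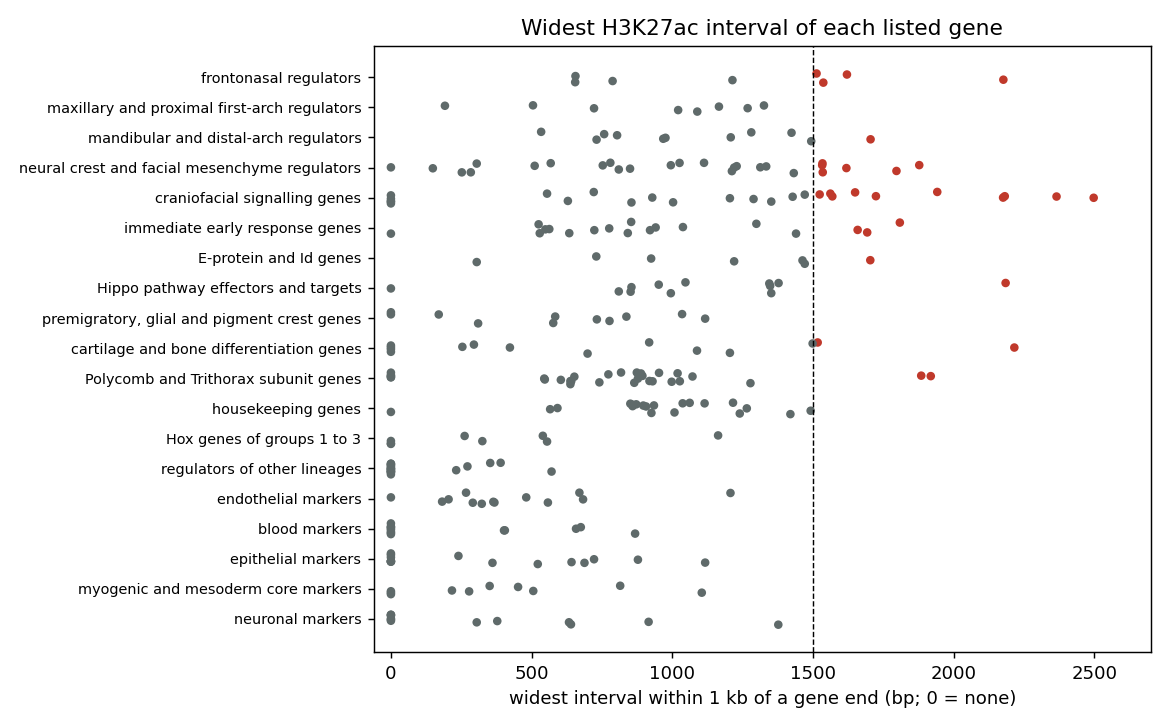
Width in bp of the widest interval within 1 kb of an end (x axis) for each gene of 19 lists (y axis), with genes at 1500 bp or more in red, a dashed line at 1500 bp, and genes without an interval at 0. Red points are in 9 lists, with 10 signalling genes and 6 crest and mesenchyme regulators, and several genes lie just left of the line.

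Housekeeping genes had 0 of 20, a count near the background of 4.3% for a list of this length. Their median widest interval was 935 bp and its median score 3899, higher than the 2567 of the signalling genes and 1614 of the crest regulators. Gapdh came closest, with 1492 bp and a score of 5849. Cytosolic ribosomal protein genes had 6 of 83 (7.23%). Rpl39 and Rpl4 led with 2058 and 1971 bp. Numbered zinc-finger genes had 26 of 397 (6.55%), mitochondrial ribosomal protein genes 3 of 78 (3.85%) and clustered histone genes 4 of 67 (5.97%), against the 4.3% of all protein-coding genes.

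Other families were read against the same 4.3%. Forkhead genes had 8 of 44 (18.2%), led by Foxl2 (2001 bp, score 487) and Foxc1 (1898 bp, 2245), and Sox genes had 4 of 19 (21.1%), led by Sox4 (2193 bp, 4083). Collagen genes had 6 of 44: Col2a1 had 2216 bp (2012), Col5a2 1807 bp (2073), Col3a1 1715 bp (2770), Col4a1 and Col4a2 shared 1663 bp (3918) and Col26a1 had 1630 bp (2368). T-box genes had 2 of 13, Tbx3 and Tbx18. Krüppel-like factor genes had 1 of 17, Klf12. Olfactory receptor genes had 0 of 1110, and 8 of them had any interval at an end.

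The remaining lists with a broad interval had 1 to 3 genes each, against 4.3% of all protein-coding genes. Immediate early genes had 3 of 18 (16.7%): Jun (1809 bp, score 1999), Ier5 (1693 bp, 2931) and Myc (1659 bp, 1014). Cartilage and bone genes had 2 of 14 (14.3%), Col2a1, the main cartilage collagen, and Sox5. Polycomb and Trithorax subunit genes had 2 of 30 (6.67%). These were Eed (1919 bp, 7475), a core Polycomb subunit, and Wdr5 (1885 bp, 5304), a shared subunit of H3K4 methyltransferases. Starts and bodies brought the count to 6 of 30, against 5.45% of all genes, and added Kmt2d (1892 bp, 8811), Kdm6a (1510 bp, 3342), Kdm6b (1516 bp, 1514) and Ash2l (1582 bp, 9594). Hippo pathway genes had 1 of 12 (8.33%), Yap1 (2185 bp, 5721), with Amotl1 (1739 bp, 5256) at a start inside the gene. E-protein and Id genes had 1 of 7 (14.3%), Id2. In lists this short, counts of 1 or 2 genes at an end are near the background and are no result about these lists.

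No broad interval lay at an end of premigratory, glial and pigment crest genes (0 of 11), Hox genes of groups 1 to 3 (0 of 8) or regulators of other lineages (0 of 19). Markers of other cells that a sort could hold also had none: 0 of 13 endothelial, 0 of 13 blood, 0 of 15 epithelial, 0 of 10 myogenic and 0 of 12 neuronal genes. With 4.3% of all genes carrying one, counts of 0 in lists this short are near the background and are no result about these lists. Most endothelial markers (12 of 13) did have an interval, with a median widest of 366 bp and a median score of 114.5. The neuronal gene Elavl4 came closest to the limit, with 1377 bp and a score of 4646.

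The list counts depended on how an interval and a gene end were defined. With intervals within 500 bp joined, 19.4% of all protein-coding genes had a broad stretch. Signalling genes then had 14 of 26, crest regulators 15 of 26, frontonasal regulators 6 of 8, maxillary regulators 5 of 8 and housekeeping genes 11 of 20. Endothelial, blood, epithelial, myogenic and neuronal markers still had 0. When the interval had to cover the end base itself, signalling genes had 6 of 26, frontonasal regulators 1 of 8 and crest regulators 1 of 26, against 3.14% of all genes.

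CpG content was read from the 300 bases from 250 before to 50 after 1 RefSeq start per gene. The ratio of observed to expected CpG had a median of 0.852 in the 681 promoters that overlapped a broad interval. It was 0.818 in the 1000 to 1499 bp class, 0.787 at 500 to 999 bp, 0.677 at 300 to 499 bp, 0.513 under 300 bp and 0.203 in the 7260 promoters with no interval. A ratio above 0.6, a usual mark of CpG islands, was found in 85.0% of broad, 82.5% of next-class and 11% of unmarked promoters. Within bands of score the width classes were close. From 4000 to 7999, the medians were 0.890, 0.868 and 0.849 from the widest class down, and from 2000 to 3999 they were 0.826, 0.808 and 0.809. The exception was the band from 500 to 999, where 17 broad promoters had a median of 0.365 against 0.678 in the next class.

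A CpG-poor minority of 35 broad promoters (5.14%) had a ratio under 0.4. Col3a1 and 4931408C20Rik had no CpG in the window, as the printed Col3a1 sequence shows, and Phyhd1, Rcbtb2 and Lpar6 had 1 each. Their intervals had scores of 2770 at Col3a1, 1531 at 4931408C20Rik, 717 at Phyhd1, 6911 at Rcbtb2 and 1618 at Lpar6. At the other end, the full windows of Gli3 and Yap1 had 39 and 49 CpG and ratios of 1.12 and 1.23.

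Short motifs were counted on both strands of the same windows. The GC box GGGCGG was found in 64.8% of broad promoters, 66.5% of the next class, 72.2% at 500 to 999 bp and 46.9% of all. The ETS core TTCCGG was found in 32.9%, 32.5% and 19.3%, and the TATA box TATAAA in 5.58%, 5.86% and 13.4%. The CCAAT box was found in 24.4% of broad promoters, 30.8% of the next class, 43.8% at 500 to 999 bp and 39.6% of all. The E-box CANNTG, a motif that basic helix-loop-helix factors such as Twist1 bind, was found in 49.0%, 58.8% and 68.8% of broad, next-class and all promoters. The cAMP response element TGACGTCA was in 3.08%, 4.23% and 2.36%. TTCCGG and GGGCGG each hold a CpG, and the median share of G and C was 65.0% in broad, 62.7% in next-class and 56.3% in all windows. The part of base composition in these shares was not tested.

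The X chromosome stood apart in the share of broad intervals. It held 32 of its 1927 intervals, or 16.6 per 1000, against 7.61 to 11.2 per 1000 on the autosomes. Place differed as well: 35.0% of all X intervals lay at a protein-coding gene end, against 16.2% on autosomes. Among intervals at gene ends, the broad share was 3.71% on both. Among the other intervals it was 0.559% on the X and 0.389% on autosomes. How far place accounts for the share on the X was not tested. Of the 32 on the X, 25 (78.1%) were at gene ends, with a median score over all 32 of 1729.5 against 3141.5 for the 1146 on autosomes. Over intervals of any width the order was reversed, with a median score of 223 on the X and 105 to 126 on the autosomes. Per 100 protein-coding genes the X held 3.31, below the autosomal range of 3.40 to 8.41.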

How the data were processed

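Reads of 4 wild-type E10.5 H3K27ac ChIP-seq libraries were merged by the authors and intervals called once with MACS2 2.1.3.3 (no model, shift 0, extension size 141, duplicates kept, q-value limit 0.001), per the text deposited with the list, which names no control. The submitters' processing notes name bcl2fastq 2.17, Bowtie 1.1.1 and GRCm38/mm10. The authors deposited 1 score per interval. It has no replicate, and depth is unknown.

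Scripts (Python 3.11.15, pandas 2.3.3, SciPy 1.17.1) kept chromosomes 1 to 19 and X and cut at 1500 bp. The design called for gene starts, but the gene table (GRCm38.p6) gives no strand, so windows of 1 kb around either gene end were used, overlap of 1 bp sufficing. RefSeq promoters (79.9% of genes) gave starts, strand and sequence. No test was run: counts, medians and Wilson 95% intervals (counting error only) describe 1 list. The code was tested on simulated intervals. Alternatives were other widths, windows, gene sets, joining, score trimming and midpoints.

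Members and lists were chosen with earlier results of these data known. Genes named are those of the 15 widest, 10 highest and 10 lowest scores and 10 widest away from ends, up to 6 per list, genes with several, and 3 on each side of the limit. Further carriers in the signalling list (all 10 are named), genes with a broad interval only inside, genes that come close to the limit, family members, those with miRNAs or printed sequences, and CpG extremes were chosen after their values were seen. Some genes that this rule names are not reported here.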

Additional observations from a re-analysis of the deposited data

How the results depend on the processing

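No paired analysis was possible because the values come from 1 pooled list and from no test. Of 52 alternatives, 28 stayed within 1.5 times of a count or within the 95% interval of a value, and 24 moved. The number of broad intervals was 3098 at a limit 250 bp lower, 122 at 2000 bp and 6890 with intervals within 500 bp joined, and the genes carrying one were 2385, 84 and 4193. The median score was 2532 at 2000 bp and 1584.5 after joining. The share at protein-coding gene ends was 62.3% at 2000 bp, 49.3% after joining, 48.0% at the end base itself, 69.0% within 2.5 kb, 71.7% for ends of all annotated genes, 59.4% for RefSeq starts and 55.3% for midpoints. The share away from every end was 23.0% at 2000 bp, 43.2% after joining, 45.3% at the end base, 23.7% within 2.5 kb and 38.5% for midpoints. Crest and mesenchyme regulators with a broad interval went from 23.1% to 0% at 2000 bp, 57.7% after joining and 3.85% at the end base. The median CpG ratio was 0.774 at 2000 bp. Leaving out the 0.1% highest scores or the X chromosome moved none of the results. RefSeq starts, midpoints and all CpG alternatives were chosen after seeing the data. Without depth, replicates or a control named for the calling, the spread of any width or score between libraries is unknown. The input libraries of the series were not used.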

Other observations

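Outside chromosomes 1 to 19 and X the list held 317 intervals, on scaffolds, the Y chromosome and the mitochondrial genome. None of them reached 1500 bp, and the widest had 1449 bp.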
